A study of Vitis vinifera with 72 samples.

Results

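The season effect was examined in the pericarp of mid-ripening Sangiovese berries from Bolgheri, on the Tuscan coast, by setting the 3 libraries of 2012 against the 3 libraries of 2011. These 6 libraries, chosen by cultivar, growth stage and area, are part of a series of 72. The series covered Sangiovese and Cabernet Sauvignon vines (Vitis vinifera) at Bolgheri, Montalcino and Riccione in both seasons, at pre-veraison (PV, BBCH 79) and mid-ripening (MR, BBCH 83), with 3 biological replicates in each of 24 groups. It asked how cultivar, environment and their interaction shape berry expression. BBCH codes number the stages of plant growth, and veraison is when berries begin to ripen. Both groups were field-grown with no treatment, so year is the contrast, with all that the weather, the vineyard and the sampling day brought in that year. The labels name no vineyard, sampling day or sequencing batch, so season and any of these cannot be told apart.

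Grape berries soften, take up sugar and, in red cultivars such as Sangiovese, lay down anthocyanin pigment in the skin as they ripen. Small heat shock proteins are chaperones that hold heat-damaged proteins in solution, and plant cells make them quickly when they warm. Stilbene synthases make resveratrol, the defence compound of grapevine, from the same substrates that chalcone synthase draws into the flavonoid pathway, and grapevine carries many near-identical copies in neighbouring positions. The pathogenesis-related proteins PR10, thaumatin-like proteins and class IV chitinases are induced by infection and stress, and the thaumatin-like proteins and chitinases also accumulate as healthy berries ripen.

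Expression was given as FPKM (fragments mapped to a gene, per transcript length and per mapped fragments of the library). Differences are 2012 minus 2011 on the log2(FPKM + 1) scale, which understates the change of low genes. The gene IDs could not be paired with names, since 0 of 29971 matched the gene table at hand. Genes are therefore described through 18 lists of IDs recalled from published grapevine gene names or taken as blocks of neighbouring IDs, and list membership was not checked against an annotation.

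Total FPKM of the 6 libraries ranged from 948434.5 to 1005779, and their depth relative to a typical library lay between 0.824 and 1.16. Absolute depth is unknown. Replicates correlated at 0.987 to 0.991 across genes in 2012 and at 0.974 to 0.987 in 2011, against 0.952 to 0.966 between the seasons. Replicate 1 of 2011 stood somewhat apart, with the lower correlations of its group. The stage label was checked with 100 genes that were much higher at MR than at PV in Cabernet Sauvignon. Their median level on the log2(FPKM + 1) scale was 7.41, 7.53 and 7.31 in Sangiovese MR in 2012 and 7.40, 7.21 and 7.16 in 2011, against 1.52 to 3.72 in the PV libraries of the same area. The MR libraries of both seasons thus held these genes at high level.

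Of 20443 genes tested, 8313 differed between the seasons at an adjusted p under 0.05 in limma. Higher in 2012 were 4048 genes, or 19.8% of those tested, and 4265 genes, or 20.9%, were lower. With quantile normalization the balance turned, to 4861 higher and 3726 lower. Over all tested genes the difference had a median of -0.0034. Most differences were small. Past 2-fold, 421 genes were higher in 2012 (2.06%) and 654 were lower (3.2%), and past 4-fold 87 were higher and 165 lower. In 20.1% of the tested genes every 2012 library lay above every 2011 library, and in 20.7% every 2012 library lay below. A fit to the 6 libraries alone, which has far fewer residual degrees of freedom, called 3763 genes.

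**Figure D1:**
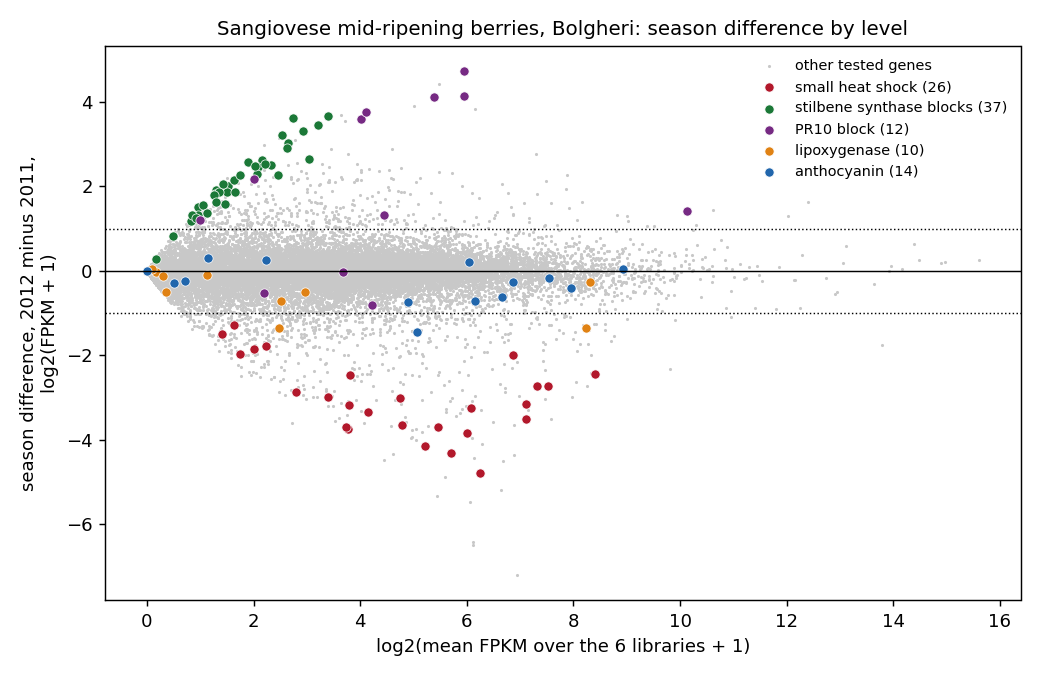
Season difference (2012 minus 2011, log2(FPKM + 1)) of each tested gene against its level, the log2 of its mean FPKM over the 6 libraries plus 1. Grey points are the other tested genes, coloured points are members of 5 lists, and dotted lines mark 2-fold. All 26 small heat shock members lie below the lower dotted line, and 35 of the 37 tested stilbene synthase members lie above the upper one.

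The small heat shock list was lower in 2012 throughout. All 26 IDs were tested, and all 26 were lower in 2012, past 2-fold, with differences of -4.77 to -1.28 around a median of -3.09. Over all tested genes 20.9% were lower, and 3.2% were lower past 2-fold. In 23 of the 26 every 2012 library lay below every 2011 library, beside 20.7% of all tested genes. Summed over the list, the level was 559, 257 and 215 FPKM in 2012, against 3586, 3308 and 1415 FPKM in 2011. The seasons did not overlap, although replicate 3 of 2011 held less than the other libraries of its year, and replicate 1 of 2012 held more. In bulk pericarp, fewer cells of a type and less RNA per cell cannot be told apart.

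The most abundant small heat shock member had 158, 80.1 and 74.0 FPKM in 2012, against 799.5, 582 and 329 FPKM in 2011. Its season difference was -2.44 ± 0.33 (SE, limma adjusted p = 2.65e-08). All 3 libraries of 2012 lay below all 3 of 2011. The largest difference came from a less even member. It had 7.93, 0.313 and 0 FPKM in 2012, against 3.93, 241 and 199 FPKM in 2011, a difference of -4.77 ± 1.5 (SE, limma adjusted p = 0.00857). Its 2012 replicate 1 lay above its 2011 replicate 1, so the groups overlapped. The lowest value among the 6 libraries was in 2012 for each of the 26 members, and the highest was in replicate 1 or 2 of 2011. With the 6 libraries alone in the fit, 15 of the 26 were called lower, and without replicate 1 of 2011, 25 were.

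Heat response regulators are transcriptional regulators that switch on chaperone genes when tissue warms, and the 2 IDs of that list followed the same direction. The more abundant had 14.8, 16.6 and 7.94 FPKM in 2012, against 185, 192 and 115 FPKM in 2011. Its season difference was -3.57 ± 0.27 (SE, limma adjusted p = 1.26e-15). The other had 3.47, 5.51 and 2.43 FPKM in 2012, against 75.9, 73.6 and 47.3 FPKM in 2011, a difference of -3.81 ± 0.28 (SE, limma adjusted p = 8.83e-16). For both IDs the highest library of 2012 stayed far below the lowest of 2011.

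**Figure D2:**
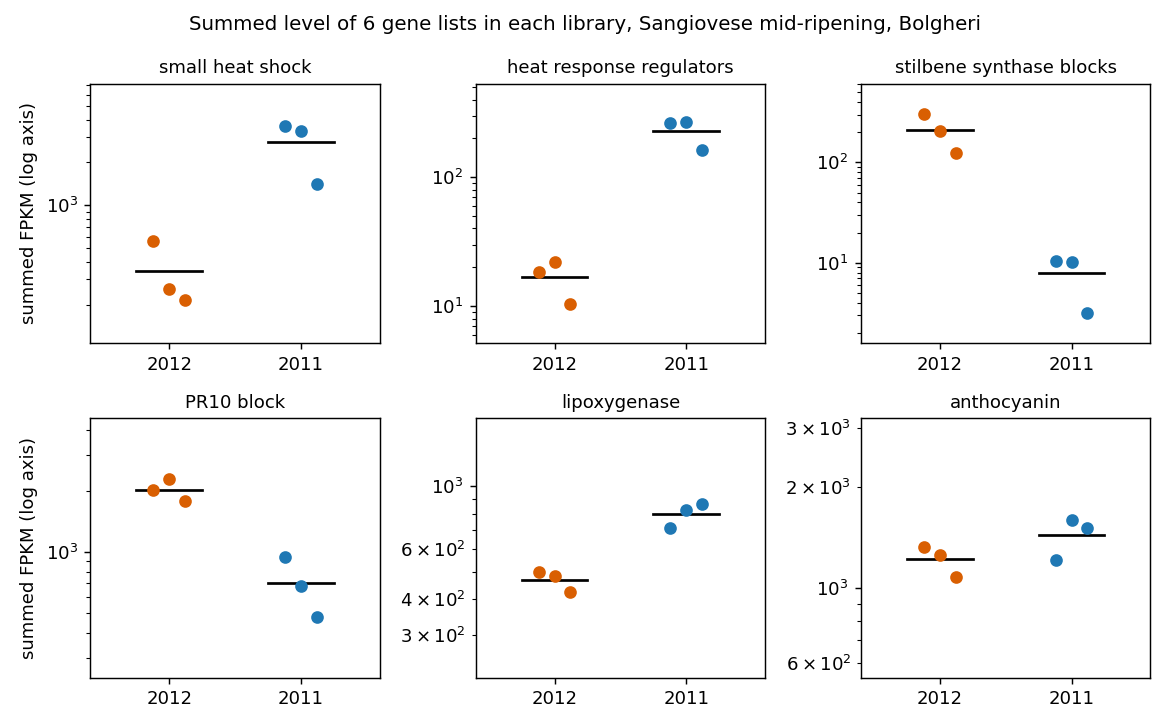
Summed FPKM (log axis) of 6 gene lists in each library, with 2012 on the left and 2011 on the right of each panel. Points are the 3 libraries in replicate order and bars their mean. The seasons do not overlap for the small heat shock, heat response regulator, stilbene synthase, PR10 and lipoxygenase lists, and they overlap for the anthocyanin list.

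Stilbene synthase IDs moved in the opposite direction. The list held 56 IDs, of which 49 were in the table and 37 passed the filter on low values. A member could pass only because it was high in 2012, so the filter was also applied to the other 22 groups. By that filter 34 members were tested and 34 were higher in 2012, with a median difference of 2.1. With the filter over all groups, 37 were higher and 0 lower, with differences of 0.29 to 3.66, and 35 were past 2-fold. Over all tested genes 19.8% were higher, and 2.06% were higher past 2-fold.

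Summed over the stilbene synthase list, the level was 305, 207 and 125 FPKM in 2012, against 10.4, 10.1 and 3.18 FPKM in 2011. All 3 libraries of 2012 stood far above those of 2011. Every one of the 37 tested members had its 3 libraries of 2012 above its 3 of 2011, beside 20.1% of all tested genes. The most abundant member, which also had the largest difference, had 27.2, 18.3 and 10.4 FPKM in 2012, against 0.327, 0.652 and 0.394 FPKM in 2011. Its season difference was 3.66 ± 0.37 (SE, limma adjusted p = 1.89e-11). The members ranked the 2012 libraries alike, with replicate 1 highest of the 6 libraries for 33 members and replicate 2 for the other 4. In 2011, 14 members were listed at 0 in at least 1 library and 3 in all of them. Reads from near-identical copies are shared among these IDs, so the levels of single members are uncertain.

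The MYB-type stilbene regulators, transcription factors known to activate stilbene synthase genes, did not pass the test. The more abundant of the 2 had 30.5, 34.98 and 26.6 FPKM in 2012, against 24.99, 21.9 and 18.8 FPKM in 2011, a difference of 0.47 ± 0.24 (SE, limma adjusted p = 0.111). Every library of 2012 lay above every one of 2011, but the gap was small beside that of the synthases. The other regulator differed by 0.44. In limma 0 of the 2 were called, and 0 reached an unadjusted p under 0.05.

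Phenylpropanoid entry genes (phenylalanine ammonia-lyase, cinnamate hydroxylase and coumarate-CoA ligase) supply the shared precursor of stilbenes and flavonoids. Of 17 tested, 10 were higher and 3 were lower in 2012, beside 19.8% and 20.9% of all tested genes. The median difference was 1.03. Most of the higher members were IDs of block VIT_16s0039 with a 2012 mean under 5 FPKM. Reads shared between such neighbours could not be separated. By the filter over the other 22 groups, 9 of 16 were higher and 3 lower. The largest difference was in a member with 26.6, 17.1 and 8.07 FPKM in 2012, against 2.25, 2.88 and 1.13 FPKM in 2011. Its season difference was 2.47 ± 0.35 (SE, limma adjusted p = 1.06e-07). The seasons did not overlap, and the 2012 replicates ranked as they did for the stilbene synthases. The most abundant member had 114, 110 and 103 FPKM in 2012, against 120.3, 111 and 129 FPKM in 2011, and it was not called (difference -0.14, limma adjusted p = 0.233). The summed level of the list was 422, 392 and 307 FPKM in 2012 and 332, 455 and 417 FPKM in 2011. The seasons overlapped in this sum, in which the abundant members weigh most. With the filter at 5 FPKM, 5 of 12 members were higher, and without replicate 3 of 2012, or replicate 2 or 3 of 2011, 1 member was lower.

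PR10 proteins are small intracellular proteins with ligand-binding and, for some, ribonuclease activity. The list was a block of 20 neighbouring IDs, of which 19 were in the table and 12 were tested. In 2012, 9 of the 12 were higher and 1 was lower, beside 19.8% and 20.9% of all tested genes. The differences ran from -0.82 to 4.73 around a median of 1.8. The 1 lower member stood near the threshold (limma adjusted p = 0.0488), and it was not called when any other library than replicate 1 of 2011 was left out. Without that replicate, 2 members were lower. Summed over the list, the level was 2013, 2284 and 1792 FPKM in 2012, against 944, 680 and 479.9 FPKM in 2011. The lowest library of 2012 thus held more than the highest of 2011.

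The most abundant PR10 member had 1566, 1775 and 1456 FPKM in 2012, against 886, 592 and 404 FPKM in 2011. Its season difference was 1.42 ± 0.40 (SE, limma adjusted p = 0.00367). The seasons did not overlap. The member with the largest difference, VIT_05s0077g01540, had 140.1, 135 and 76.3 FPKM in 2012, against 5.40, 5.44 and 0.945 FPKM in 2011. Its difference was 4.73 ± 0.57 (SE, limma adjusted p = 2.04e-09). On this scale the low-level member differed by more than the abundant one.

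Thaumatin-like proteins are a further pathogenesis-related family. Among 11 tested IDs, 3 were higher in 2012, beside 19.8% of all tested genes, and 0 were lower (median 0.90). The most abundant had 3338, 1939 and 1897 FPKM in 2012, against 1709, 2260 and 2271 FPKM in 2011 (difference 0.16, limma adjusted p = 0.771). Its seasons overlapped. A less abundant member with the largest difference had 61.2, 24.1 and 27.2 FPKM in 2012, against 15.9, 5.49 and 3.25 FPKM in 2011, a difference of 2.19 ± 0.33 (SE, limma adjusted p = 2.69e-07). Replicate 1 of 2012 was the highest of the 6 libraries for 10 of the 11. The thaumatin-like calls changed with the settings. The fit to the 6 libraries alone called 0 of them higher, and without the filter on low values 1 was. Without replicate 1 of 2012, or without replicate 2 or 3 of 2011, 1 was also called.

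Class IV chitinases, which cut fungal cell wall chitin, had 3 of 10 tested members higher in 2012, beside 19.8% of all tested genes, and 1 lower. The most abundant had 10450, 10920 and 10440 FPKM in 2012, against 8338, 6839 and 6125 FPKM in 2011. Each library of 2012 was above each of 2011, yet the difference of 0.59 was not called (limma adjusted p = 0.246). The largest difference was in a member with 18.7, 9.96 and 8.06 FPKM in 2012, against 1.63, 1.86 and 1.75 FPKM in 2011, a difference of 2.19 ± 0.34 (SE, limma adjusted p = 6.51e-07). The libraries of 2012 lay well clear of those of 2011. Without replicate 1 of 2011, 2 class IV members were lower, in the fit to the 6 libraries alone 0 were, and without the filter on low values 5 were higher.

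Anthocyanins colour the berry skin. Of 14 tested IDs of that list, 4 were lower in 2012, beside 20.9% of all tested genes, and 0 were higher (median -0.25). The most abundant was at 514, 515 and 444 FPKM in 2012 and 407, 548 and 488 FPKM in 2011 (difference 0.04, limma adjusted p = 0.961). The anthocyanin member with the largest difference had 16.8, 16.6 and 15.7 FPKM in 2012, against 28.2, 55.7 and 61.95 FPKM in 2011, a difference of -1.44 ± 0.21 (SE, limma adjusted p = 1.26e-07). It was lower in every 2012 library, and among the 2011 libraries replicate 1 was lowest. At a pseudocount of 0.1, 1 anthocyanin member was called lower, and without replicate 3 of 2011, 1 was called higher.

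The flavonoid core list held chalcone synthase and further enzymes of the flavonoid pathway, with a block of neighbouring IDs, VIT_06s0009. Of 18 tested, 5 were higher and 5 were lower in 2012, beside 19.8% and 20.9% of all tested genes. Most of the lower members lay in that block. The most abundant member of the list, outside that block, had 664, 789.9 and 562 FPKM in 2012 and 561, 917 and 843 FPKM in 2011. It was not called (difference -0.19, limma adjusted p = 0.697). The member with the largest difference, also outside the block, had 179, 182 and 144 FPKM in 2012, against 309.7, 492 and 439 FPKM in 2011. Its difference was -1.27 ± 0.22 (SE, limma adjusted p = 4.77e-06). Its seasons did not overlap. Without replicate 2 of 2012, or replicate 3 of 2011, 3 core members were higher, and without replicate 2 or 3 of 2011, 2 were lower.

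Flavonols are pale flavonoids that screen ultraviolet light. Of 5 tested, 1 was higher and 3 were lower in 2012, beside 19.8% and 20.9% of all tested genes. The higher one, the most abundant of the list, had 33.3, 52.5 and 34.3 FPKM in 2012, against 13.4, 9.71 and 7.11 FPKM in 2011, a difference of 1.90 ± 0.32 (SE, limma adjusted p = 2.24e-06). All 2012 libraries were above those of 2011. The count of lower flavonol members fell to 1 without replicate 3 of 2012, or without replicate 2 or 3 of 2011. The 2 light response IDs, regulators that act upstream of flavonols in light, had 0 higher and 1 lower. The lower one had 20.0, 12.6 and 15.9 FPKM in 2012, against 22.5, 23.4 and 22.2 FPKM in 2011 (difference -0.49 ± 0.13 SE, limma adjusted p = 0.00164), and without replicate 2 of 2012 it was not called.

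Of 7 tested IDs of the list named for proanthocyanidins, or tannins, 1 was higher and 1 was lower. Over all tested genes 19.8% were higher and 20.9% lower. The lower one had 2.39, 2.15 and 2.22 FPKM in 2012, against 3.25, 14.1 and 17.1 FPKM in 2011, a difference of -1.69 ± 0.27 (SE, limma adjusted p = 1.08e-06). Replicate 1 of 2011 lay nearer to the 2012 libraries than to its own group. The most abundant proanthocyanidin member had 42.9, 46.96 and 47.5 FPKM in 2012 and 41.5, 43.3 and 39.4 FPKM in 2011, and it was not called (difference 0.14, limma adjusted p = 0.295). The higher call was lost without replicate 2 of 2012 or replicate 1 of 2011, and without replicate 1 of 2012 there were 2.

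Lipoxygenases oxidise fatty acids into aroma compounds and jasmonate precursors. Of 10 tested members, 5 were lower in 2012 and 0 were higher (median -0.37), beside 20.9% and 19.8% of all tested genes. Summed FPKM was 500.3, 482 and 424 in 2012, against 712, 823 and 864 in 2011. The sums did not overlap between the seasons. The member with the largest difference had 168, 172 and 164 FPKM in 2012, against 364, 417 and 515 FPKM in 2011, a difference of -1.34 ± 0.12 (SE, limma adjusted p = 2.38e-13). Replicates of 2012 were nearly equal for this member, and all lay below 2011. The most abundant member had 316, 299 and 249 FPKM in 2012, against 331, 381 and 318 FPKM in 2011, a smaller difference of -0.26 (limma adjusted p = 0.0288).

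NAC transcription factors regulate plant ageing and fruit ripening. Of 7 ripening NAC IDs, 3 were higher and 1 was lower in 2012, beside 19.8% and 20.9% of all tested genes. The most abundant was not called, at 74.1, 72.3 and 75.6 FPKM in 2012 and 64.8, 70.3 and 71.8 FPKM in 2011 (difference 0.10, limma adjusted p = 0.712). The member with the largest difference had 47.5, 31.3 and 28.2 FPKM in 2012, against 11.6, 7.47 and 7.11 FPKM in 2011, a difference of 1.91 ± 0.18 (SE, limma adjusted p = 1.53e-12). Its seasons did not overlap.

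Sugar transporters and invertases load and split sucrose in the berry. Of 9 tested, 2 were higher and 4 were lower in 2012, beside 19.8% and 20.9% of all tested genes. The most abundant had 747, 492 and 500.3 FPKM in 2012 and 229, 522 and 500.4 FPKM in 2011 (difference 0.54, limma adjusted p = 0.103), with overlap between the seasons. The largest difference was in a member with 12.4, 8.11 and 8.77 FPKM in 2012, against 20.2, 46.6 and 50.3 FPKM in 2011, a difference of -1.82 ± 0.21 (SE, limma adjusted p = 4.93e-10). It was lower in every 2012 library, with replicate 1 the lowest of 2011. Without replicate 1 of 2012, or without replicate 1 of 2011, 1 member of the list was higher.

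Abscisic acid is the hormone that promotes berry ripening and drought responses. Of 5 tested IDs of its synthesis and breakdown, 1 was higher and 2 were lower in 2012. Over all tested genes 19.8% were higher and 20.9% lower. The most abundant abscisic acid ID had 9.97, 5.98 and 7.52 FPKM in 2012, against 16.8, 45.9 and 42.0 FPKM in 2011. Its difference was -1.93 ± 0.30 (SE, limma adjusted p = 6.59e-07). The seasons did not overlap, and replicate 1 of 2011 was again the lowest of its year. Expansins loosen cell walls. Of 6 tested, 0 were higher and 1 was lower, and the most abundant had 1669, 2192 and 2665 FPKM in 2012, against 1499, 1455 and 987 FPKM in 2011 (difference 0.73, limma adjusted p = 0.28). The lower expansin was called only in the fits that kept replicates 1 and 2 of 2012 and replicates 2 and 3 of 2011, and without replicate 1 of 2011, 2 were lower.

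Many genes that fall during ripening were lower in 2012. For this, 2 sets of 100 genes each were taken from Cabernet Sauvignon after the data had been seen, those that rose most and those that fell most between PV and MR. Of the falling set, 69 were lower and 1 was higher in 2012 in Sangiovese MR from Bolgheri, with a median difference of -0.87. Over all tested genes 20.9% were lower and 19.8% higher. The median level of the falling set was 1.33, 1.11 and 1.07 in 2012, against 1.90, 2.44 and 2.14 in 2011, on the log2(FPKM + 1) scale. The libraries of 2012 were all lower, and replicate 1 of 2011 was nearest to them. Of the rising set, 21 were higher and 15 lower in 2012, beside 19.8% and 20.9% of all tested genes. Its median difference was 0.10. The falling set thus moved with the season, and its part in the list differences was not tested.

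By rule, 2 IDs each way were named for the largest season differences without overlap. The higher ones were VIT_05s0077g01540 of the PR10 block, given above, and VIT_18s0166g00060. VIT_18s0166g00060 had 64.5, 104 and 55.0 FPKM in 2012, against 38.4, 0 and 0 FPKM in 2011 (limma adjusted p = 0.0169). It was listed at 0 in 2 libraries of 2011, and it switched between 0 and at least 10 FPKM among the replicates of 9 of the 24 groups. Its call was lost without replicate 2 of 2012 (limma adjusted p = 0.0554), without replicate 2 of 2011 (0.103) and without replicate 3 of 2011 (0.102).

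The lower ones were VIT_19s0177g00090 and VIT_07s0005g03420. VIT_19s0177g00090 had 0.315, 0 and 0 FPKM in 2012, against 96.4, 559 and 75.4 FPKM in 2011 (limma adjusted p = 0.00392). VIT_07s0005g03420 had 0.0880, 0 and 0.0277 FPKM in 2012, against 59.4, 309 and 42.4 FPKM in 2011 (limma adjusted p = 0.00507). Both were lower in every library of 2012, and both had by far their highest value in replicate 2 of 2011. At PV in Bolgheri in 2011 the same IDs reached 10180, 21010 and 4088 FPKM and 5794, 15190 and 4292 FPKM, with replicate 2 again the highest. There they had 3.56, 174 and 0.672 FPKM and 7.06, 217 and 6.65 FPKM in 2012. Their season effects were -9.76 and -8.25 at PV, and -3.65 and -2.22 in Cabernet Sauvignon MR, both in Bolgheri. In Sangiovese MR they were -4.68 and -4.19 in Montalcino, and -2.05 and -1.61 in Riccione. Neither ID was called in the area, cultivar or stage difference below. No list of markers of another tissue could be filled, so no such marker was set beside these 2 IDs.

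**Figure D3:**
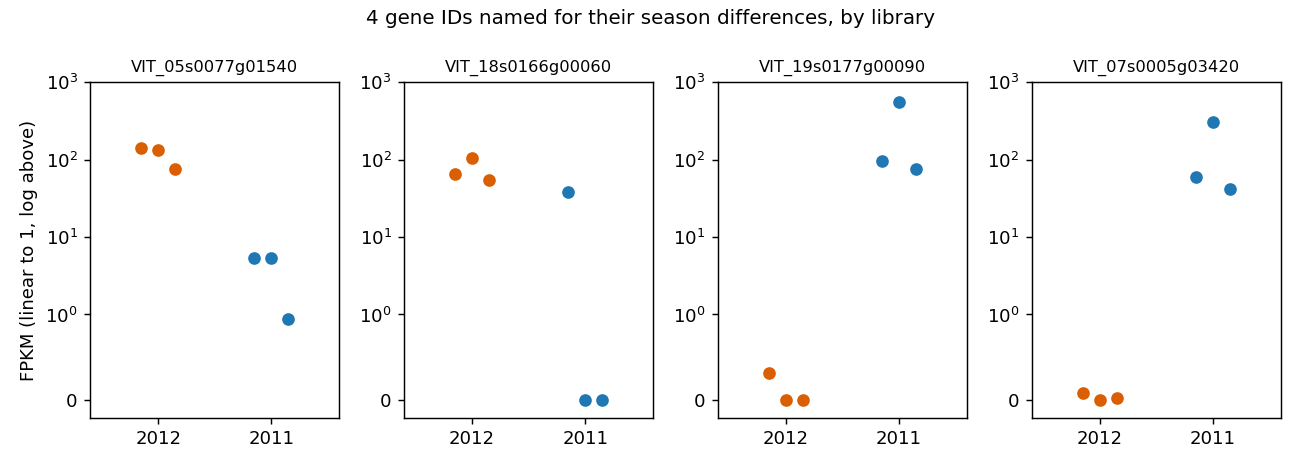
FPKM by library (linear up to 1, log above) of the 4 IDs named for their season difference, 2012 on the left and 2011 on the right of each panel. Points are the 3 libraries in replicate order. VIT_18s0166g00060 is listed at 0 in 2 libraries of 2011, and the 2 lower IDs are at or near 0 in all 3 libraries of 2012.

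The season effect in Bolgheri was then set against that of mid-ripening Sangiovese in the other areas, as the Bolgheri effect minus the mean of the Montalcino and Riccione effects. The same 6 libraries enter this and the next comparisons, so their results are not independent of the season effect above. The area difference was positive in 3462 genes (16.9%) and negative in 3711 (18.2%). With quantile normalization the balance turned here too, to 4233 positive and 3294 negative. Stilbene synthase members had 36 of 37 positive and 0 negative. Of the 37, 34 passed the filter over the other 22 groups. The rest passed only through Sangiovese MR from Bolgheri, so their part in this count was favoured by the filter. The same limit holds for the cultivar and stage differences below. The median season effect of the 37 members was 2.04 in Bolgheri, -0.14 in Montalcino and -0.17 in Riccione. Summed FPKM in 2012 averaged 212 ± 90.2 in Bolgheri, against 6.02 ± 1.55 in Montalcino and 5.05 ± 2.69 in Riccione (SD, n = 3 each). The Bolgheri libraries of 2012 thus stood apart from both other areas of that year.

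PR10 members had 8 of 12 positive and 1 negative in the area difference, beside 16.9% and 18.2% of all tested genes. Their median season effect was 1.8 in Bolgheri, -1.27 in Montalcino and -0.997 in Riccione. Phenylpropanoid entry members had 10 of 17 positive and 2 negative, and 16 of the 17 passed the filter over the other 22 groups. The PR10 medians of the other areas had the opposite sign, and summed FPKM in 2012 averaged 2030 ± 247 in Bolgheri, 331 ± 43.3 in Montalcino and 299.8 ± 75.2 in Riccione (SD, n = 3 each).

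Small heat shock members had 0 of 26 positive and 11 negative in the area difference, beside 16.9% and 18.2% of all tested genes. Their median season effect was -3.09 in Bolgheri, 0.40 in Montalcino and -3.71 in Riccione. Against Montalcino alone, where 20.2% of genes were positive and 18.3% negative, 22 members were negative and 0 positive. Against Riccione alone, where 11.4% of genes were positive and 16% negative, 3 members were positive and 0 negative. Both of these splits were added after the data had been seen. Both heat response regulators were negative in the area difference, and their median season effect was -3.69 in Bolgheri, 0.09 in Montalcino and -2.48 in Riccione.

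**Figure D4:**
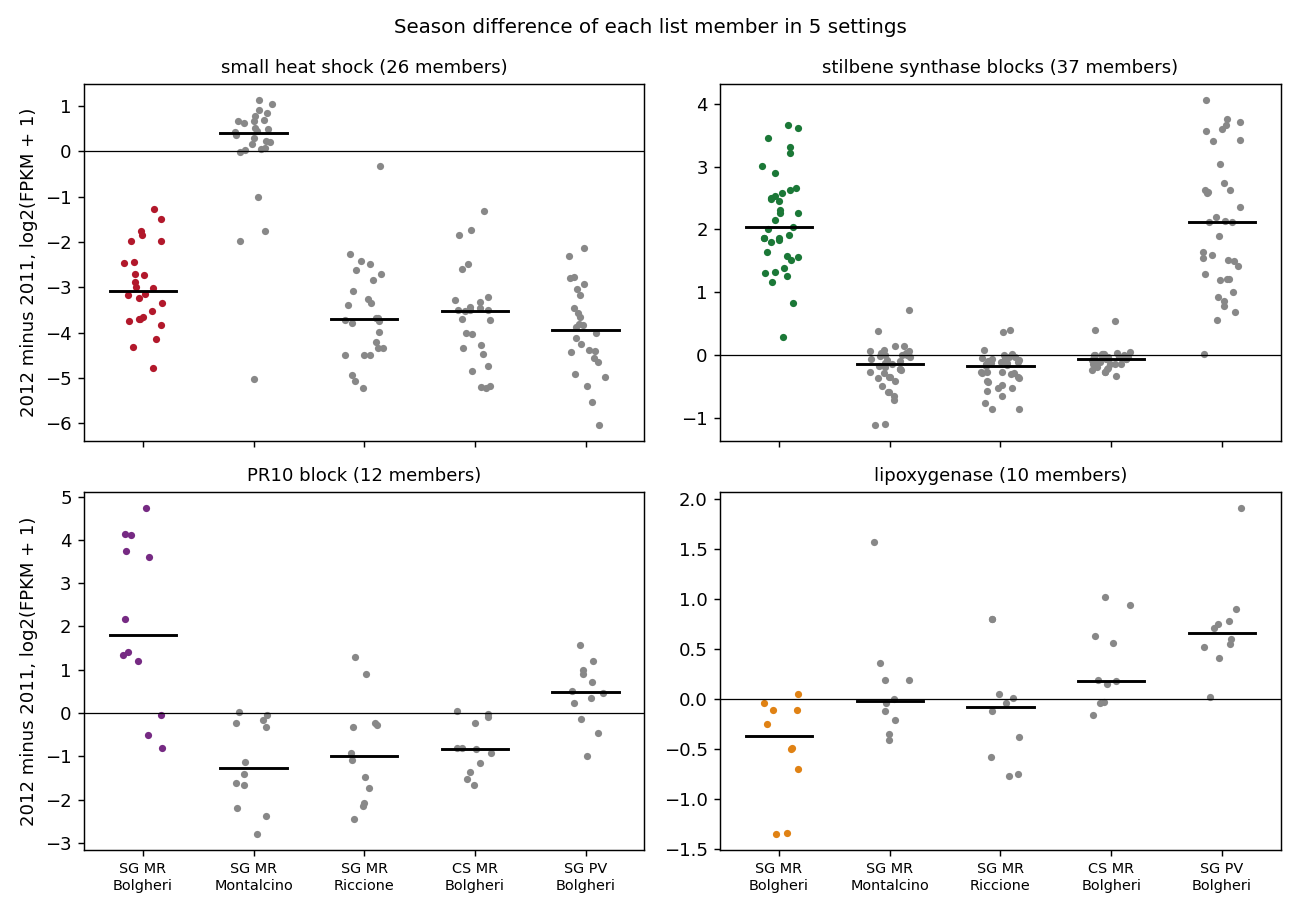
Season difference (2012 minus 2011, log2(FPKM + 1)) of each tested member of 4 lists in Sangiovese (SG) MR from Bolgheri, coloured, and in 4 other settings, grey: SG MR from Montalcino and Riccione, Cabernet Sauvignon (CS) MR from Bolgheri, and SG PV from Bolgheri. Each point is a member and each bar the median. Stilbene synthase members lie above 0 in SG from Bolgheri at both stages and on both sides of 0, between -1.12 and 0.72, in the other 3 settings shown, whereas small heat shock members lie below 0 in every setting other than Montalcino.

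The cultivar difference was the season effect of Sangiovese MR minus that of Cabernet Sauvignon MR, both in Bolgheri. It was positive in 3550 genes (17.4%) and negative in 4952 (24.2%), with a median over all genes of -0.06. With quantile normalization the positive share of the calls was 52.7%, against 41.8% without it. Stilbene synthase members, again with those that passed the filter only through Sangiovese MR from Bolgheri, had 36 of 37 positive and 0 negative. PR10 members had 10 of 12 positive and 0 negative. The median season effect in Cabernet Sauvignon was -0.06 for the stilbene synthases and -0.82 for PR10. Small heat shock members had 6 of 26 positive and 1 negative, with a median season effect of -3.09 in Sangiovese and -3.52 in Cabernet Sauvignon. Lipoxygenase members had 8 of 10 negative and 0 positive. Expansins had 5 of 6 negative and 0 positive, with a median season effect of 0.07 in Sangiovese and 0.94 in Cabernet Sauvignon.

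The stage difference was the season effect at MR minus that at PV, both in Sangiovese from Bolgheri. It was positive in 3711 genes (18.2%) and negative in 5405 (26.4%), with a median over all genes of -0.05. With quantile normalization the positive share of the calls was 52.3%, against 40.7% without it. For stilbene synthase members the median season effect was 2.04 at MR and 2.11 at PV, and 10 of 37 had a positive and 9 a negative stage difference. Summed FPKM at PV averaged 289 ± 145 in 2012, against 16.7 ± 22.3 in 2011 (SD, n = 3 each). Sums of 2012 above those of 2011 were also seen at PV in the other areas and in Cabernet Sauvignon, with no test of these sums. In Sangiovese at PV the sum averaged 69.0 ± 13.9 FPKM in 2012, against 3.36 ± 3.29 FPKM in 2011, in Montalcino, and 102 ± 23.3 FPKM in 2012, against 6.32 ± 4.04 FPKM in 2011, in Riccione. In Cabernet Sauvignon at PV it averaged 8.92 FPKM in 2012, against 2.42 FPKM in 2011, in Bolgheri. It averaged 21.2 FPKM in 2012, against 3.54 FPKM in 2011, in Montalcino, and 40.1 FPKM in 2012, against 6.19 FPKM in 2011, in Riccione. In all of these PV pairs the lowest library of 2012 lay above the highest of 2011. PR10 members had 7 of 12 positive and 0 negative, with median season effects of 1.8 at MR and 0.49 at PV. Small heat shock members had 7 of 26 positive and 0 negative, with medians of -3.09 at MR and -3.95 at PV. Lipoxygenase members had 9 of 10 negative and 0 positive, with medians of -0.37 at MR and 0.65 at PV.

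**Figure D5:**
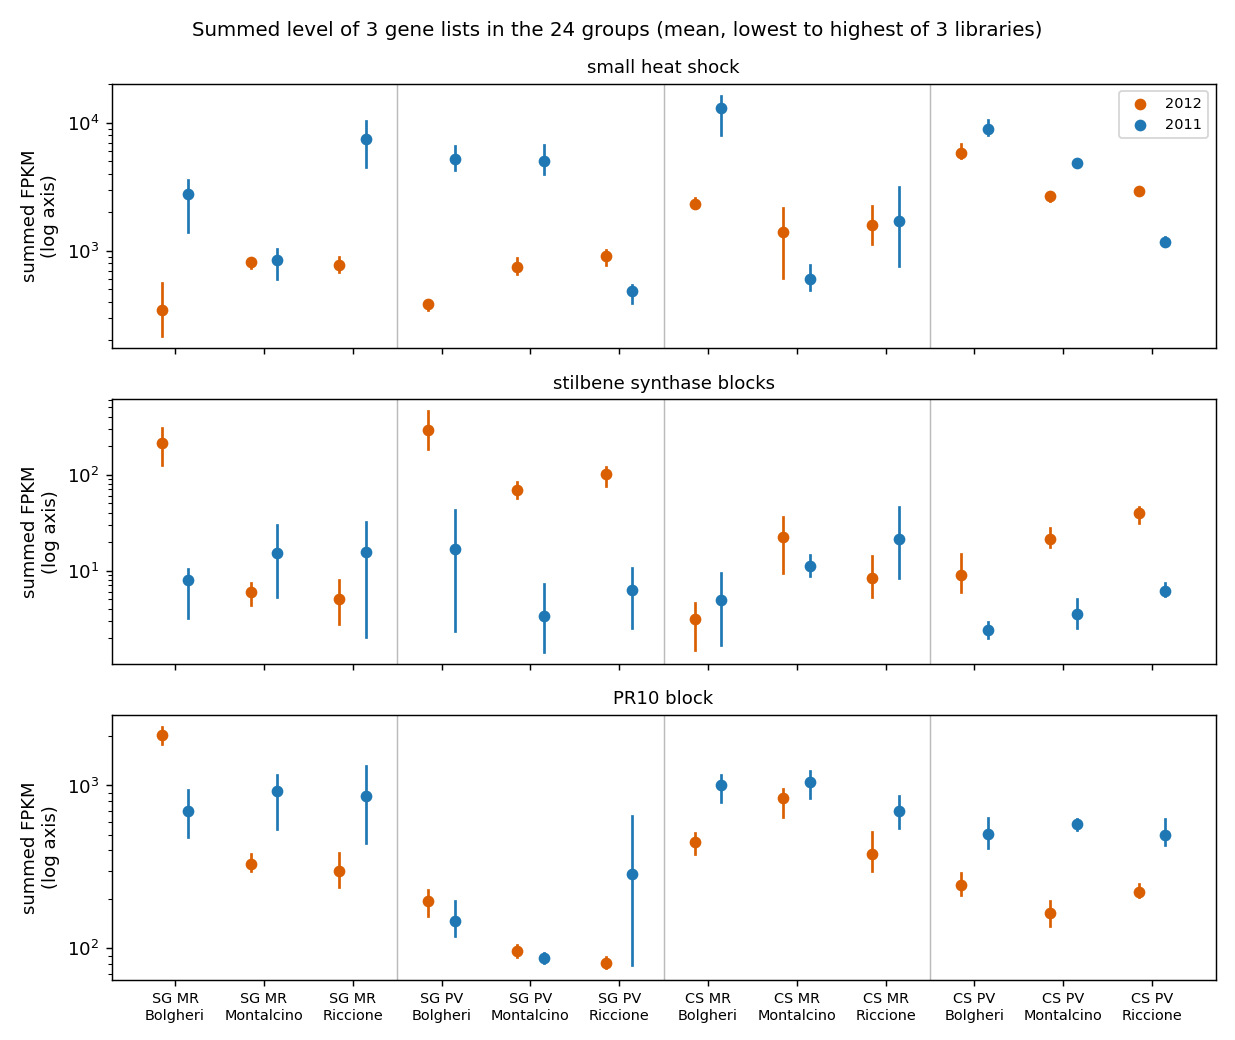
Summed FPKM (log axis) of 3 lists in the 24 groups of the series, with 2012 left of 2011 for each cultivar (SG, Sangiovese; CS, Cabernet Sauvignon), stage and area. Points are the mean of 3 libraries and lines run from the lowest to the highest. The PR10 sum in SG MR from Bolgheri in 2012 averaged 2030 FPKM, above the mean of every other group, and the small heat shock sum averaged 343 FPKM, below the mean of every other group.

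The IDs named for the area difference were VIT_05s0077g01560 (difference 6.76 ± 0.97 SE) and VIT_05s0077g01540 (6.69) among the positive ones. VIT_05s0077g01560, also of the PR10 block, had 111, 141 and 92.2 FPKM in 2012, against 11.2, 8.38 and 1.39 FPKM in 2011. Its season effect was 4.14 in Bolgheri, -2.79 in Montalcino and -2.46 in Riccione. The seasons did not overlap in Bolgheri.

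The negative ones were VIT_14s0006g02950 (-4.72 ± 0.75 SE) and VIT_08s0007g04800 (-4.29 ± 0.24 SE). VIT_14s0006g02950 had 9.73, 8.42 and 2.75 FPKM in 2012, against 95.4, 49.9 and 43.8 FPKM in 2011. VIT_08s0007g04800 had 1.72, 1.71 and 1.20 FPKM in 2012, against 13.4, 16.3 and 21.4 FPKM in 2011. Both were lower in every 2012 library in Bolgheri. The season effect of VIT_14s0006g02950 was 3.81 in Montalcino and -0.48 in Riccione, so only Montalcino had the opposite sign. For VIT_08s0007g04800 it was 2.15 in Montalcino and 0.82 in Riccione.

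The negative IDs named for the cultivar difference were VIT_06s0004g04640 (-5.23 ± 0.56 SE) and VIT_04s0023g02280 (-5.21 ± 0.41 SE). VIT_06s0004g04640 had 5.79, 8.91 and 9.75 FPKM in 2012, against 66.3, 272 and 338 FPKM in 2011. VIT_04s0023g02280 had 11.2, 7.55 and 6.38 FPKM in 2012, against 107, 55.4 and 47.1 FPKM in 2011. Neither overlapped between the seasons. Their season effects in Cabernet Sauvignon were 0.87 and 2.35. The positive ones were VIT_18s0166g00060 (6.32) and VIT_05s0077g01540 (6.24). The cultivar call of VIT_18s0166g00060 was lost with the 36 MR libraries alone (limma adjusted p = 0.0695), without replicate 2 of 2011 (0.0547) and without replicate 3 of 2011 (0.0543).

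For the stage difference the positive IDs were VIT_18s0001g01750 (9.37 ± 2.88 SE) and VIT_14s0066g00700 (6.53 ± 1.95 SE). VIT_18s0001g01750 had 35.5, 70.1 and 46.9 FPKM in 2012, against 0, 0 and 35.6 FPKM in 2011. It switched between 0 and at least 10 FPKM among replicates of 13 of the 24 groups, and its seasons overlapped at MR, since the lowest library of 2012 lay just under the highest of 2011. Its season effect at MR was not called (3.91, limma adjusted p = 0.123), and at PV it was -5.46. VIT_14s0066g00700 had 107, 109.7 and 84.4 FPKM in 2012, against 191, 175 and 153 FPKM in 2011 at MR. Every 2012 library thus lay below every 2011 library at MR. Its season effect at MR was not called either (-0.78 ± 1.38 SE, limma adjusted p = 0.713). That SE comes from the spread shared by all groups, not from these 6 libraries alone. At PV, where the 2012 libraries had 2.04, 33.2 and 0.640 FPKM, the season effect was -7.31.

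The negative ones were VIT_12s0057g00060 (-5.31 ± 0.72 SE) and VIT_12s0057g00120 (-5.23 ± 0.67 SE). VIT_12s0057g00060 had 28.1, 32.8 and 19.8 FPKM in 2012, against 334, 163 and 172 FPKM in 2011. VIT_12s0057g00120 had 7.33, 16.8 and 4.77 FPKM in 2012, against 171, 72.8 and 73.4 FPKM in 2011. Both lay lower in every 2012 library at MR, whereas their season effects at PV were positive, at 2.36 and 1.86.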

How the data were processed

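FPKM values of 29971 gene IDs in 72 libraries were used as deposited by the authors. Per the submitters' processing notes, CASAVA 1.8.2, TopHat2 2.0.9 and Cufflinks 2.1.1 were used. No option, genome build or annotation is given in the sources used here. Per the labels' protocols, total RNA of pericarp was made into libraries that keep no strand, so reads of overlapping genes on opposite strands cannot be told apart. FPKM is relative within a library. Relative depth came from the smallest steps between low values of 3313 genes. Of their values at 0.5 to 3.5 fitted reads, 85.3% lay within 0.1 of a whole number, and of those at 1.5 to 3.5, 72.7% did. These steps are fitted by gene, so no counts were recovered and no counting interval is given.

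Genes with a mean of at least 1 FPKM in at least 1 of 24 groups (20443) were fitted on log2(FPKM + 1) with limma 3.58.1 in R 4.3.3. The model had a mean for each group, 48 residual degrees of freedom and a spread following mean level. Adjusted p is two-sided Benjamini-Hochberg over all 20443 genes, and the threshold was 0.05. SE is limma's, from the spread shared by all groups. Groups came from the labels, and replicate numbers only name samples.

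The comparisons, members, lists and tests were chosen with earlier results of these data known. IDs named had the largest differences among called genes reaching a mean of 10 FPKM, 2 each way per comparison, and each list gave its most abundant member and the one with the largest difference among those reaching that mean in either season. No set test was run. No pair of libraries was identical (0). Alternatives covered pseudocounts, filters, scaling, a robust spread, subsets of libraries, a log2 difference of at least 1 and each of the 6 libraries left out. The method was tested on simulated data.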

Additional observations from a re-analysis of the deposited data

Results flagged for a closer look

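The season effect itself differed between settings, by the test of the difference in limma, in 7173 genes for area, 8502 for cultivar and 9116 for stage. These differences share the 6 libraries of Sangiovese MR from Bolgheri, and values are on the log2(FPKM + 1) scale. No explanation was weighed.

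Among the named IDs, VIT_05s0077g01540 had differences of 6.69 by area, 6.24 by cultivar and 4.01 by stage. VIT_05s0077g01560 had 6.76 by area, 5.81 by cultivar and 3.15 by stage. VIT_18s0166g00060 had 5.10 by area and 6.32 by cultivar, and its cultivar call was lost with the 36 MR libraries alone and without replicate 2 or 3 of 2011. VIT_18s0001g01750 had 6.53 by area and 9.37 by stage. VIT_14s0066g00700 had 6.53 by stage. VIT_14s0006g02950 had -4.72 by area and -4.41 by stage. VIT_08s0007g04800 had -4.29 by area, -3.66 by cultivar and -2.93 by stage. VIT_06s0004g04640 had -3.01 by area, -5.23 by cultivar and -4.13 by stage. VIT_04s0023g02280 had -4.04 by area, -5.21 by cultivar and -2.70 by stage. VIT_12s0057g00060 had -3.99 by area and -5.31 by stage. VIT_12s0057g00120 had -4.15 by area, -2.64 by cultivar and -5.23 by stage.

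For the member with the largest season difference of each list, the positive differences were as follows. The stilbene synthase member had 4.01 by area and 3.77 by cultivar. The phenylpropanoid member had 2.36 by area and 2.72 by cultivar. The PR10 member was VIT_05s0077g01540, with 6.69 by area, 6.24 by cultivar and 4.01 by stage. The thaumatin-like member had 3.31 by area, 2.71 by cultivar and 1.65 by stage. The class IV chitinase member had 1.59 by cultivar. The flavonol member had 2.61 by area, 1.84 by cultivar and 3.72 by stage. The ripening NAC member had 2.42 by area, 2.71 by cultivar and 2.14 by stage.

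The negative differences were these. The heat response regulator had -2.62 by area and -1.35 by stage. The lipoxygenase member had -1.23 by area, -1.49 by cultivar and -2.25 by stage. The member of the sugar transport and invertase list had -1.79 by area, -2.06 by cultivar and -2.01 by stage. The abscisic acid member had -2.05 by area, -1.38 by cultivar and -3.39 by stage. The anthocyanin member had -1.45 by area, -1.61 by cultivar and -1.31 by stage. The flavonoid core member had -0.82 by area and -1.45 by cultivar. The proanthocyanidin member had -1.88 by area, -1.87 by cultivar and -1.81 by stage.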

How the results depend on the processing

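The season count of 8313 was 3763 with the 6 libraries alone and 1075 with a log2 difference of at least 1; that threshold gave 1369 for the area, 1901 for the cultivar and 2767 for the stage difference. Leaving out each of the 6 libraries in turn gave 7057 to 8256 for the season, 6188 to 7655 for the area, 7768 to 8833 for the cultivar and 8253 to 9377 for the stage. Under the other alternatives run, which were pseudocounts of 0.1 and 5, no filter, a filter at 5 FPKM, both scalings, the robust spread and, other than for the stage, the 36 MR libraries alone, these 4 counts stayed within 1.5 times.

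With each library left out, 22 to 26 small heat shock members were lower and 36 or 37 stilbene synthase members were higher, and under both scalings all 26 and all 37 were. Of the flavonol members, 3 were lower, but 0 with the 6 libraries alone. The expansin median ranged from -0.65 to 0.46 and the sugar median from -0.24 to 0.06 with a library left out, so no direction holds for either. Of 248 alternative values of the named IDs, 240 kept their call. The other 8, all of VIT_18s0166g00060, lost it. Among them were the 3 season calls lost with a library left out, given above. Its cultivar difference had limma adjusted p of 0.0695 with the 36 MR libraries alone, 0.0547 without replicate 2 of 2011 and 0.0543 without replicate 3. No paired analysis was possible because the replicate numbers were given in accession order and pair no samples. Depth limits members near 0 FPKM.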

Other observations

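Of the 1075 genes past 2-fold, 155, or 14.4%, lay in 32 runs of neighbouring IDs. A run is at least 3 such genes of one direction with steps of at most 50 in the ID number, a rule set after the data had been seen and described with no test or chance value. The longest run on no list was lower in 2012. It ran from VIT_12s0057g00060 to VIT_12s0057g00220 and held 12 lower genes of 15 tested, with a median season difference of -2.78 and a median level of 13.98 FPKM in 2012, against 97.6 FPKM in 2011. A second run on no list, in block VIT_05s0102, held 5 lower genes of 6 with a median difference of -2.62. The higher runs on no list held 3 such genes each, and the median difference was largest, at 2.76, in block VIT_06s0004. Reads shared between similar neighbours could not be separated, and the IDs could not be paired with names.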
